A study of Mus musculus with 441 samples.

Results

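The genes Rgs1, Rgs2, Rgs3, Rgs10, Rgs14, Rgs16 and Rgs19 encode regulators of G protein signalling, or RGS proteins. They were taken by symbol, and 7 of 7 were present among the 13561 genes measured. The data were full-length SMART-Seq2 transcriptomes of 441 single cells from mouse pancreatic islets, which had been freed by collagenase digestion and dissociated. Every cell had been sorted as a CD4 T cell specific for beta cells, by binding a tetramer, a set of joined MHC class II molecules whose peptide is recognised by the T cell receptor. A HIP tetramer gave 184 cells and an Ins tetramer gave 257, and the labels spell out neither abbreviation. The sources used here do not give strain, genotype, age or number of animals, so each sort counted as 1 sample. No test was possible between sorts, intervals cover counting error only, and an SD is the spread between cells.

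An activated chemokine receptor switches on a heterotrimeric G protein of the Gi family, and the cell migrates while the alpha subunit holds GTP. RGS proteins speed the hydrolysis of that GTP, which ends the signal and lowers the response to chemokine. Rgs1, Rgs2, Rgs3 and Rgs16 belong to the R4 subfamily of small RGS proteins. Rgs10 and Rgs14 belong to the R12 subfamily, and Rgs19, also called GAIP, belongs to the RZ subfamily. In lymphocytes these genes are known for setting how strongly a cell follows a chemokine gradient, and Rgs1 and Rgs16 are known to be induced by activation.

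Rgs1, Rgs2 and Rgs16 lie on chromosome 1 of the mouse build GRCm38, in the annotation GENCODE M21. Rgs1 spans chr1:144242296-144249242 on the minus strand, Rgs2 spans chr1:143999338-144004161 on the minus strand, and Rgs16 spans chr1:153740349-153745468 on the plus strand. The other genes lie at chr4:62559847-62704001 (Rgs3, plus strand), chr7:128373621-128418758 (Rgs10, minus), chr13:55369732-55384687 (Rgs14, plus) and chr2:181688419-181693977 (Rgs19, minus). RefSeq promoter windows for the build GRCm38.p6 matched 5 of the 7 genes, with 8 windows in all. The 250 bases before the start are shown for Rgs16 and Rgs10, because these genes lay on opposite sides of the T follicular helper class in cluster 2 of the HIP sort, a class that the authors annotated as activated CD4 T cells. For Rgs16 this rested on part of the HIP cells, as given below. Capitals mark matches to the CCAAT box (CCAAT) and the GC box (GGGCGG) on either strand, and both sequences run 5′ to 3′ along the gene.
Rgs16, chr1:153740103-153740352, plus strand: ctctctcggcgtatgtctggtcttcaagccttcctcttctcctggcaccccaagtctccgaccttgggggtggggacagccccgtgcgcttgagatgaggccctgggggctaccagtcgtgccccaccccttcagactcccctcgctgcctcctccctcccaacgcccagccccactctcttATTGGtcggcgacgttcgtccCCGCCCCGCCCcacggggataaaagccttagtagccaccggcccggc
Rgs10, chr7:128418173-128418422, minus strand: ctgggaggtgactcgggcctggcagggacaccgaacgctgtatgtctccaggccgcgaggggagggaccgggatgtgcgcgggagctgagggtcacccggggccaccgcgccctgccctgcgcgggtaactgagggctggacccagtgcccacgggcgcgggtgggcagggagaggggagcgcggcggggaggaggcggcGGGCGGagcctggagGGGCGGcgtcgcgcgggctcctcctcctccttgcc
The Rgs16 window held a CCAAT box, read on the opposite strand, and a pair of GC boxes that overlap by 1 base. The Rgs10 window held GC boxes and no CCAAT box. Neither window held the AP-1 motif (TGANTCA), the cyclic AMP response element (TGACGTCA) or the TATA box (TATAAA). Among 32851 promoter windows of 300 bases, 37.4% held the CCAAT box, 35.7% the GC box, 7.81% AP-1, 1.79% the cyclic AMP response element and 13.6% the TATA box. GC content was 66.4% for Rgs16 and 76.4% for Rgs10, against a median of 52.4% for the whole windows. These matches describe the letters only.

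The authors' annotation divided the cells into T follicular helper cells (Tfh, 111 HIP and 61 Ins), regulatory T cells (Treg, 3 HIP and 115 Ins), cluster 2 (annotated as activated CD4 T cells, 61 HIP and 25 Ins), dividing CD4 T cells (9 HIP and 35 Ins) and cluster 4 (annotated as B cells, 21 Ins). Defining markers followed these names in part. Cxcr5 was detected, at 1 TPM or more, in 45 of 111 HIP and 28 of 61 Ins Tfh cells. In cluster 2, Cxcr5 was detected in 2 of 61 and 2 of 25 cells, and Cxcr6, a receptor of effector cells, in 33 and 17. The summed level of the 8 Tfh markers, Cxcr5 included, lay closer together. Its median was 3570 TPM in HIP Tfh and 3202 TPM in HIP cluster 2 cells. In the Ins sort it was 3526 TPM in Tfh, 2602 TPM in cluster 2 and 3108 TPM in Treg cells. The median sum of 8 effector (Th1) markers was 4657 TPM for HIP cluster 2, against 0 for HIP Tfh cells. Among Ins cells it was 5344 TPM for Treg, 2733 for cluster 2 and 0 for Tfh. Effector markers thus did not set cluster 2 apart from Treg cells in the Ins sort. For 8 Treg markers the median sum was 3088 TPM for HIP cluster 2, against 567 for HIP Tfh. Ins values were 5192 TPM for Treg, 2095 for cluster 2 and 906 for Tfh. Foxp3, the Treg factor, was detected in 94 of 115 Ins Treg cells and 27 of 35 Ins dividing cells, but in 0 of 9 HIP dividing cells. Dividing cells of the 2 sorts thus differed in lineage markers. In cluster 4, Sdc1 and Cd79a, genes of antibody-secreting and B cells, were detected in 20 and 19 of 21 cells, and the T cell gene Cd3e in 1. Cells held 2081 detected genes at the median (range 625 to 5929), with 3992 and 3610 in HIP and Ins dividing cells and 1862 to 2477 in the other groups of 20 cells or more. TPM (a transcript's share, scaled to a fixed total) keeps no read depth, for which only the detected genes can stand in. Cell numbers fall into blocks of 96, with 2 blocks of HIP cells and 3 of Ins cells. Blocks show the spread within a sort, but no block holds both sorts, so block and sort cannot be told apart.

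Rgs10 and Rgs1 were the most abundant members, and each led in some of the groups. TPM is normalised for transcript length, so it can be added over genes, and the mean over the 7 genes added up to 1714 in HIP Tfh cells and 1462 in Ins Tfh cells. Rgs10 gave 54.2% and 59.0% of these sums. The sum was 3359 in HIP cluster 2 and 1393 in Ins cluster 2, and Rgs1 gave 65.3% and 25.4% of it. In Ins Treg cells, with a sum of 1592, Rgs10 gave 36.5% and Rgs1 25.8%. The lowest sum was that of cluster 4, at 274, where Rgs19 gave 40.0% and Rgs10 30.7%. A T cell held a median of 2 members, dividing cells a median of 3, and 43 of 420 T cells held none (10.2%).

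**Figure D1:**
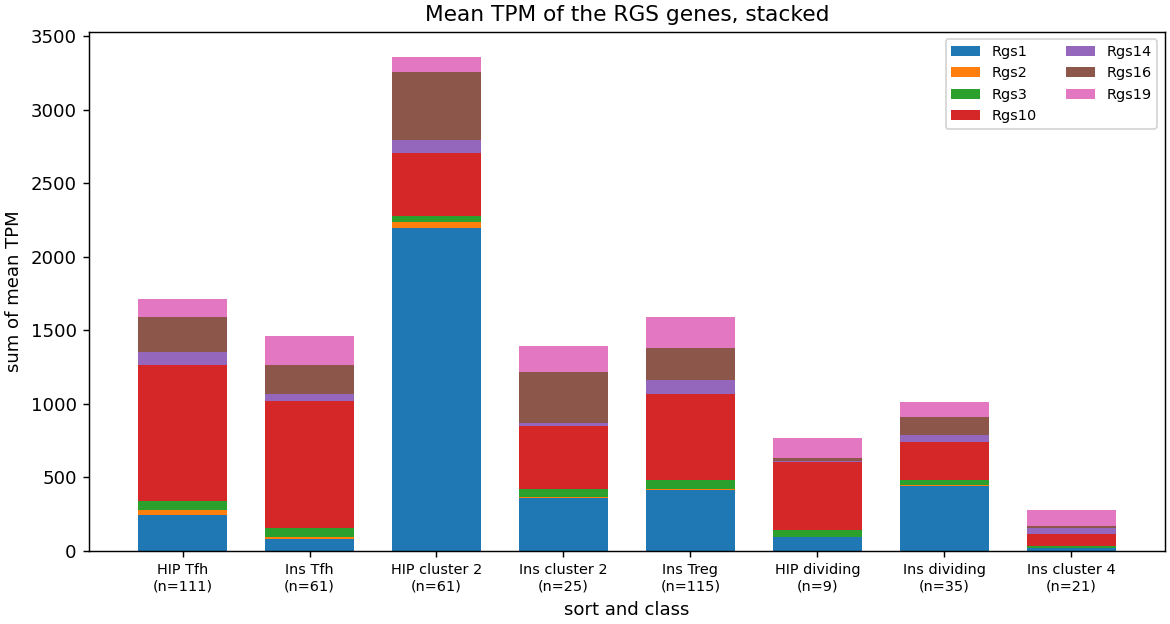
Stacked bars of the mean TPM (vertical axis) of the 7 RGS genes in each sort and class (horizontal axis, with the number of cells). The 3 HIP Treg cells are left out. Rgs1 fills 65.3% of the tallest bar, HIP cluster 2 at 3359, while Rgs10 fills more than any other gene in both Tfh bars.

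**Figure D2:**
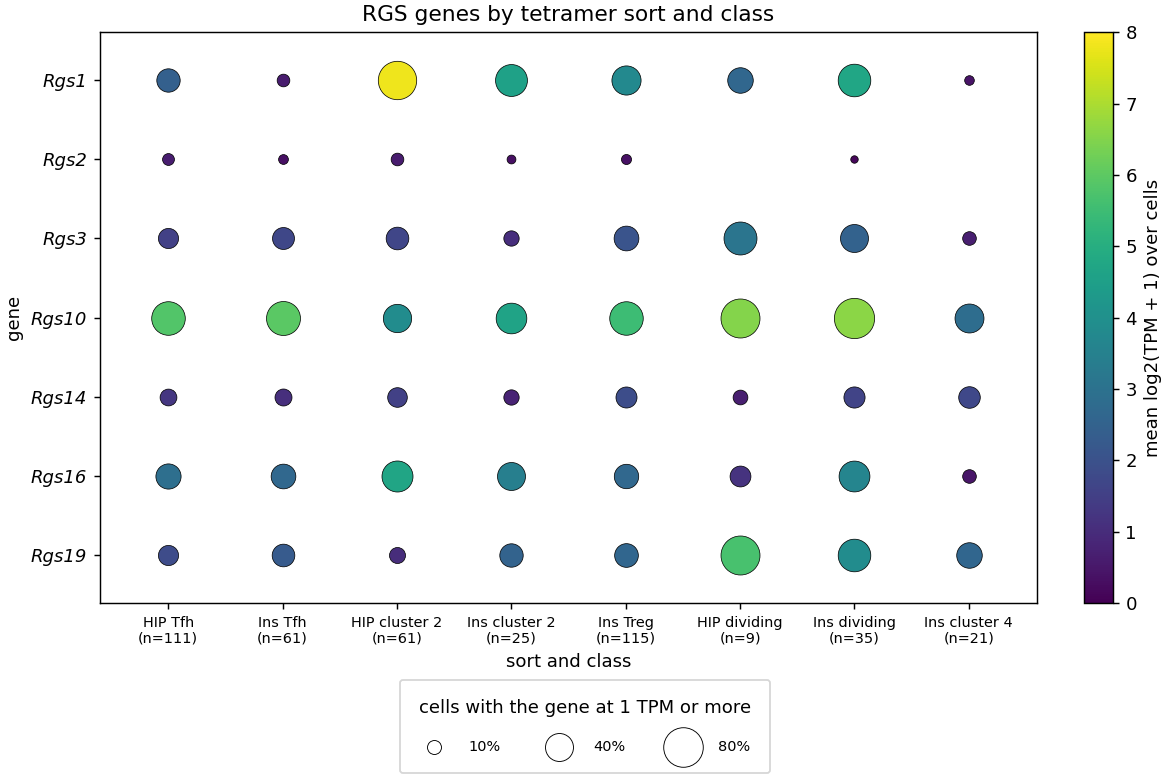
Each circle shows a gene (rows) in a sort and class (columns); its area is the percentage of cells with 1 TPM or more and its colour the mean log2(TPM + 1) over cells, and no circle means no cell. The 3 HIP Treg cells are left out. Rgs1 ranged from 4.76% of cluster 4 to 75.4% of HIP cluster 2, while Rgs10 was detected in 41.0% of cells or more in each column drawn.

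Rgs1, which limits chemokine-driven migration of lymphocytes through Gi and Gq, differed between the sorts in the same classes. In Tfh cells it was detected in 31 of 111 HIP cells (27.9%, exact Clopper-Pearson 95% interval 19.8 to 37.2) and in 5 of 61 Ins cells (8.20%, 2.71 to 18.1). The mean was 239 ± 664 TPM (SD, n = 111 cells) in HIP and 81.7 ± 583 TPM (n = 61 cells) in Ins. Few Ins Tfh cells thus held the transcript, and the Ins mean came mostly from a single cell at 4555 TPM, while the other 4 held 26.1, 71.4, 135 and 194 TPM. Over the blocks the shares were 33.9% and 21.2% for HIP, and 0%, 13.6% and 8.70% for Ins. Block values of the sorts therefore did not overlap. The difference of mean log2(TPM + 1), HIP minus Ins, was 1.80, and its rank from the top was 10 among 5779 genes detected in 10% of the cells of either group. Rgs1 passed this filter only through the HIP cells, where it was higher. It was the only member of 6 tested that reached a difference of 1, which 5.87% of all genes reached in either direction and 2.08% upward. The other 5 lay between -0.44 and 0.22, and the median of the 6 was 0.04 against -0.06 for all genes. The lowest HIP block lay above the highest Ins block for Rgs1, as for 8.25% of genes.

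In cluster 2 of the HIP sort the same gene reached its highest mean log2 level among the groups of 9 cells or more, while Ins cluster 2 lay just below Ins dividing cells. It was detected in 46 of 61 HIP cells (75.4%, 62.7 to 85.5) and in 13 of 25 Ins cells (52.0%, 31.3 to 72.2). The median of detected cells was 1949 TPM for HIP and 532 TPM for Ins, so both the share of cells and the level per detected cell were higher in HIP. Mean log2 levels by block were 8.08 and 7.56 in HIP, and 5.03, 4.23 and 4.43 in Ins, without overlap. Mean TPM was 6.19 times higher in HIP, and the rank of the log2 difference was 3 of 6079 genes. Among all genes, 9.99% had block means apart in this direction. In this class 3 of 6 tested members passed a difference of 1, against 15.2% of all genes. Of these 2 were higher (8.42% of genes) and 1 lower (6.74%), and the median of the 6 was 0.69 against 0.05.

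Stress and dissociation genes, which respond within minutes to handling of tissue, moved with the Rgs1 difference. Of 17 such genes, 12 were tested in Tfh cells, and 6 were higher in HIP by 1 or more, against 2.08% of all genes. None was lower, and the median was 0.95 (all genes -0.06). Dusp1, a phosphatase of MAP kinases, differed by 3.81 and Junb, a subunit of AP-1, by 3.35. In cluster 2, 6 of 12 were higher (8.42% of all genes) and 0 lower, with a median of 1.09 (all genes 0.05). The summed level of the list ranged over cells from 0 to 30649 TPM in HIP Tfh (median 3339, with 0 of the 17 genes absent from all cells) and from 0 to 7620 TPM in Ins Tfh (median 877, 4 genes absent). It ranged from 0 to 21533 TPM in HIP cluster 2 (median 2035, 2 absent) and from 0 to 6111 TPM in Ins cluster 2 (median 833, 3 absent). Across cells, the correlation of log2 Rgs1 with this summed level was 0.44 in HIP cluster 2 (n = 61 cells, which share a sort) and 0.26 in HIP Tfh (n = 111). In Ins it was 0.25 in cluster 2 (n = 25) and 0.05 in Tfh (n = 61). The part of these genes in the Rgs1 difference was not tested.

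Between classes of a sort, Rgs1 was higher in cluster 2 than in Tfh cells. The classes are the authors' clusters of these same cells, so such differences are descriptions. In the HIP sort the difference was 5.37 and its rank 6 of 5835 genes, and the mean TPM was 9.20 times higher in cluster 2. Of the stress genes 0 of 12 were higher in HIP cluster 2 (8.57% of all genes) and 1 was lower (2.78%), with a median of -0.05 (all genes 0.09). In Ins cluster 2 against Tfh, 2 of 9 were higher (9.69% of all genes) and 1 lower (8.20%), with a median of -0.42 (all genes -0.01). The part of these genes in the class differences was not tested. For Rgs1 the difference between cluster 2 and Tfh cells of the Ins sort was 3.95, with 5.03, 3.41 and 3.57 inside the 3 blocks. Ins Treg cells also held more Rgs1 than Ins Tfh cells: it was detected in 50 of 115 cells (43.5%, 34.3 to 53.0), with a mean of 410 ± 780 TPM (SD, n = 115 cells). The difference from Tfh was 3.15 over all cells and 4.74, 3.12 and 2.08 inside the blocks. With Rgs1 in 8.20% of Ins Tfh cells, it passed the detection filter in both Ins comparisons only through the class where it was higher. Of the 6 tested members only Rgs1 passed a difference of 1 in Treg against Tfh cells, against 13.3% of all genes (9.01% upward). Of 9 stress genes tested in the same comparison 2 were higher and 1 lower, with a median of 0.21 (all genes 0.01). The 3 HIP Treg cells are too few to compare, and 2 of them held Rgs1, at 1916 and 5543 TPM.

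In dividing cells the order of the sorts was the opposite. Rgs1 was detected in 3 of 9 HIP cells, at 152, 239 and 419 TPM, and in 19 of 35 Ins cells (54.3%, 36.6 to 71.2) with a mean of 441.7 ± 844 TPM (SD, n = 35 cells). The difference was -2.07. The groups overlapped, with block means of 0 and 3.41 in HIP and 6.62, 3.03 and 3.60 in Ins, and without the first Ins block the difference was -0.66. Stress genes were also lower in HIP in this class, 6 of 13 by 1 or more (10.0% of all genes), with a median of -0.58 (all genes 0.17). Their summed level ranged from 0 to 997 TPM in HIP (median 520, 5 of 17 genes absent) and from 1.18 to 5896 TPM in Ins (median 799, 4 absent), and its part in the result was not tested. Foxp3 differed in the same direction, as given above, and its part was not tested either. In order of mean log2 level, Rgs1 ran from HIP cluster 2 through Ins dividing, Ins cluster 2, Ins Treg, HIP dividing, HIP Tfh and Ins Tfh to cluster 4. Of the 7 neighbouring pairs in this order, only HIP Tfh and Ins Tfh had detection intervals that did not overlap. For each of the other genes the intervals overlapped in all 7 pairs.

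**Figure D3:**
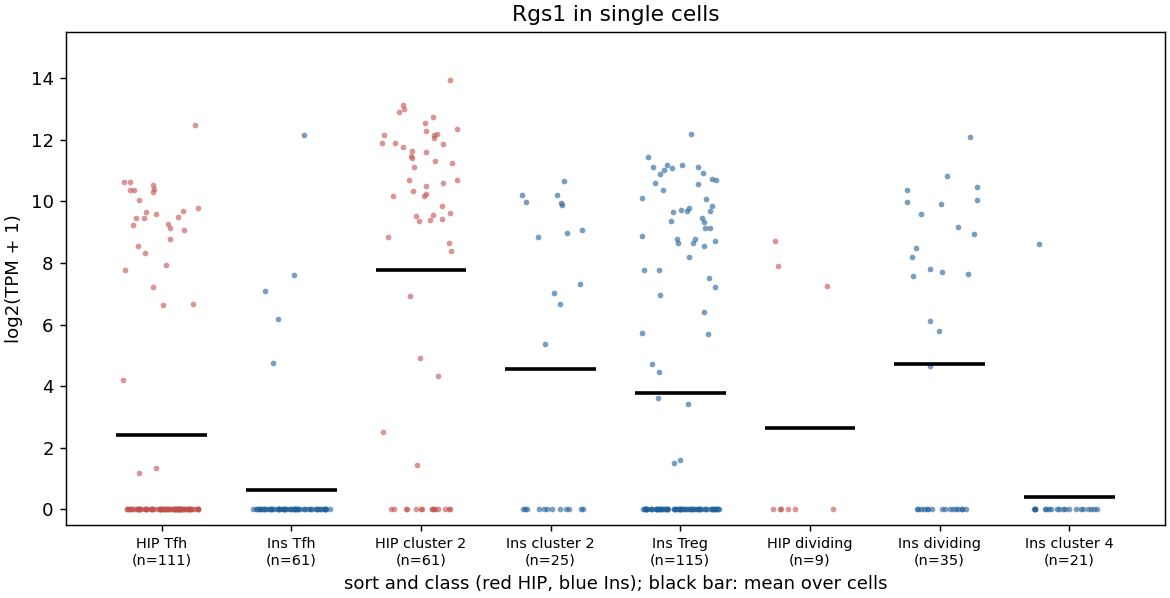
Each point is a cell, with Rgs1 as log2(TPM + 1) on the vertical axis and sort and class on the horizontal axis; red is HIP, blue is Ins, the black bar is the mean over cells and the 3 HIP Treg cells are left out. Cells at 0 make up most of the Ins Tfh column, where 5 of 61 cells hold the transcript, and the minority of the HIP cluster 2 column, where 46 of 61 do.

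Rgs16, an R4 member that acts on Gi and Gq and is induced in activated T cells, was highest in HIP cluster 2. By mean log2 level Ins dividing cells came next (3.64), ahead of Ins cluster 2 (3.43). It was detected in 30 of 61 HIP cluster 2 cells (49.2%, 36.1 to 62.3) at a mean of 466.5 ± 676 TPM (SD, n = 61 cells) and in 10 of 25 Ins cluster 2 cells (40.0%, 21.1 to 61.3) at 351 ± 840 TPM (n = 25 cells). In Tfh cells the share was 32.4% for HIP and 31.1% for Ins, with means of 239 ± 480 and 201 ± 409 TPM, and in Ins Treg cells in 30.4% at 218 ± 468.9 TPM. Levels in Tfh and Treg cells thus lay close together, below Ins dividing cells and both groups of cluster 2 on the log2 scale and above HIP dividing cells and cluster 4. Against Tfh cells of its own sort, HIP cluster 2 was higher by 1.81, but this came from the second HIP block, at 3.47, while the first gave -0.03. Against Ins cluster 2 it was higher by 1.26, and the blocks overlapped, with 3.46 and 5.67 in HIP and 2.18, 7.01 and 1.92 in Ins. That value was 0.03 without the second HIP block. In dividing cells the sorts stood further apart. Rgs16 was detected in 2 of 9 HIP cells, at 10.0 and 126 TPM, and in 17 of 35 Ins cells (48.6%, 31.4 to 66.0) at 124 ± 175 TPM. The difference was -2.48, and mean TPM was 8.19 times higher in Ins. Block means were 0 and 1.49 in HIP and 4.74, 4.14 and 1.49 in Ins, so the highest HIP and the lowest Ins block were level to 2 decimals. In this class 1 tested member was higher by 1 or more, against 17.2% of all genes, and 2 were lower, against 10.0%. Together 3 of 6 passed, against 27.2% of genes, and only 9 HIP cells stand behind them.

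Rgs3 and Rgs2, the remaining R4 members, were low. Rgs3, which acts on Gi and Gq, was detected in 23 of 111 HIP Tfh cells (20.7%) and 15 of 61 Ins Tfh cells (24.6%). In cluster 2 it was detected in 16 of 61 HIP cells (26.2%) and 3 of 25 Ins cells (12.0%), in Ins Treg cells in 36 of 115 (31.3%), and in dividing cells in 5 of 9 HIP and 14 of 35 Ins cells. Mean TPM of Rgs3 lay between 38.7 and 64.8 in all T cell groups of 9 cells or more, so its share of cells varied more than its mean level did. Inside Ins Treg cells the share ran from 20.5% to 41.9% over the blocks. No comparison of T cell groups took Rgs3 past a difference of 1. Rgs2, which prefers the alpha subunit of Gq, was detected in 24 of 420 T cells (5.71%, 3.69 to 8.38). Its highest share was 5 of 61 cells in HIP cluster 2 (8.20%), and it was not detected in HIP dividing cells (0 of 9, compatible with a share up to 33.3%) or in cluster 4 (0 of 21, up to 14.3%). All 8 HIP Tfh cells with Rgs2 lay in the first block, at 242 to 1359 TPM, with 0 of 52 in the second. All 3 Ins Tfh cells with it lay in the first Ins block. Rgs2 reached 10% of cells in no group compared, so it is the member left out of the 6 tested.

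Rgs10, a small R12 protein that acts on Gi alpha subunits, was the most widely detected member. It was detected in 64 of 111 HIP Tfh cells (57.7%, 47.9 to 67.0) and 36 of 61 Ins Tfh cells (59.0%, 45.7 to 71.4), with means of 930 ± 1172 TPM (SD, n = 111 cells) and 863 ± 1068 TPM (n = 61 cells). The sorts did not differ here beyond these intervals, and the difference of log2 means was -0.10. In cluster 2 it was lower: 25 of 61 HIP cells (41.0%, 28.6 to 54.3) at 427 ± 781 TPM, and 12 of 25 Ins cells (48.0%, 27.8 to 68.7) at 432 ± 544 TPM. The HIP difference from Tfh was -1.98, with -1.16 and -2.86 inside the blocks, and its rank from the bottom was 27 of 5835 genes. In this comparison Rgs10 was thus on the opposite side from Rgs1 and, over all cells, from Rgs16, which differed by -0.03 in the first HIP block and 3.47 in the second. Here 3 of 6 members passed a difference of 1, against 11.3% of all genes (8.57% upward and 2.78% downward). The Ins difference was -1.31 but was not stable over blocks, with -0.95, 1.85 and -3.71, and 2 of 6 members passed, against 17.9% of genes (9.69% upward and 8.20% downward). Within HIP cluster 2 cells, log2 Rgs10 had a correlation of -0.40 with the summed stress genes and 0.31 with the number of genes detected (n = 61 cells). The part of either in the result was not tested.

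In Ins dividing cells Rgs10 was detected more often than in Ins Treg cells, but at a lower TPM in the cells that held it. It was detected in 29 of 35 dividing cells of the Ins sort (82.9%, 66.4 to 93.4) with a mean of 259 ± 218 TPM (SD, n = 35 cells), and in 66 of 115 Ins Treg cells (57.4%, 47.8 to 66.6) with a mean of 581 ± 712 TPM (n = 115 cells). The log2 difference was 1.12 upward while mean TPM was 2.24 times lower in dividing cells. Inside the 3 Ins blocks the log2 difference was 0.94, 2.14 and -0.15, so its sign was mixed. It passed 1 in 5 of the 10 other settings tried, and was 0.67 without the second Ins block. Detected cells held a median of 252 TPM in the dividing class and 869 TPM in Treg cells. In this comparison 2 of 6 members passed a difference of 1, against 43.2% of all genes (42.3% upward), and the median was 0.96 for the members and 0.80 for all genes. The members thus sat near the background, and Ins dividing cells had 3610 genes detected at the median against 2017 in Treg cells. The part of that number was not tested. In HIP dividing cells Rgs10 was detected in 7 of 9, from 54.0 to 1364 TPM. By mean log2 level the order ran from both dividing groups through both Tfh groups, Ins Treg, Ins cluster 2 and HIP cluster 2 to cluster 4.

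Rgs14, an R12 protein with a GoLoco motif that also binds inactive Gi alpha, was detected in a minority of cells of each group of 9 cells or more. Its share lay between 11.1% in HIP dividing cells (1 of 9) and 23.8% in cluster 4 (5 of 21). Its mean was 98.3 ± 235 TPM in Ins Treg cells (SD, n = 115 cells), the highest of the groups, and 17.1 ± 62.1 TPM in Ins cluster 2 (n = 25 cells), the lowest of the T cell groups over 9 cells. In cluster 2 HIP exceeded Ins by 0.76, with 12 of 61 against 3 of 25 cells, and both HIP blocks lay above the 3 Ins blocks. That difference stayed under the threshold of 1, although mean TPM was 5.06 times higher in HIP, and was 0.44 in cells with at least 1500 genes. In dividing cells the difference was -0.94, with a mean of 7.33 TPM from 1 of 9 cells against 42.3 TPM from 8 of 35.

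Rgs19, the RZ member, which acts on Gi and Gz alpha subunits and binds the scaffold Gipc1, was most often detected in dividing cells. It was detected in 7 of 9 HIP dividing cells (77.8%, 40.0 to 97.2) with a mean of 139 ± 101 TPM (SD, n = 9 cells), and in 19 of 35 Ins dividing cells (54.3%, 36.6 to 71.2) with 101 ± 121 TPM (n = 35 cells). In Ins Treg cells it was detected in 33 of 115 (28.7%, 20.6 to 37.9) with 213 ± 411 TPM (n = 115 cells). As with Rgs10, the dividing class held it in more cells and had a mean TPM 2.12 times lower than Treg cells, with a log2 difference of 1.24. In that comparison 42.3% of all genes were higher by 1 or more, with a median of 0.80. Ins dividing cells had 3610 genes detected at the median against 2017 in Treg cells, and the part of that number was not tested. In cluster 2 it went the other way from Rgs1 between the sorts, detected in 8 of 61 cells in HIP (13.1%, 5.84 to 24.2) and 7 of 25 in Ins (28.0%, 12.1 to 49.4). The difference was -1.49, and the block means did not overlap, with 0.77 and 1.23 in HIP and 3.46, 2.27 and 1.94 in Ins. Lower in every HIP block were 7.21% of genes in this class. The detection intervals of the 2 sorts overlap, and a single HIP cell at 3878 TPM gave most of the HIP mean of 99.7 TPM. In Tfh cells the share with Rgs19 was 20.7% for HIP and 26.2% for Ins. In dividing cells HIP exceeded Ins by 1.83, with block means of 3.56 and 6.29 against 3.79, 4.70 and 3.11, which overlap. By mean log2 level the dividing groups came first, at 5.69 and 3.85, and HIP cluster 2 last, at 1.03.

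**Figure D4:**
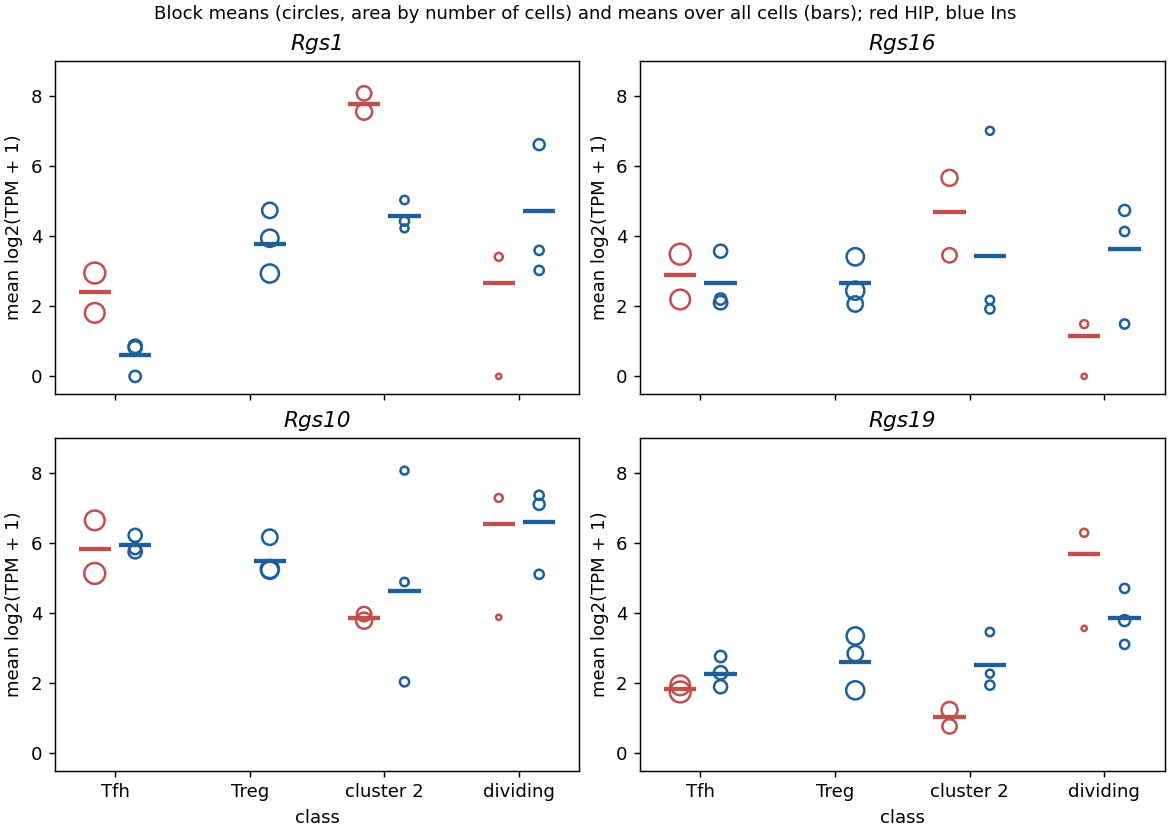
Circles are means of log2(TPM + 1) in blocks of 96 consecutive cell numbers (area by number of cells) and bars are means over all cells, by class, for Rgs1, Rgs16, Rgs10 and Rgs19; red is HIP and blue is Ins, and the 3 HIP Treg cells are left out. For Rgs1 the red circles lie above the blue ones in Tfh and cluster 2, and for Rgs16 and Rgs10 the circles of Ins cluster 2 spread from 1.92 to 7.01 and from 2.04 to 8.07.

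Cluster 4 of the Ins sort, which carried B lineage and not T cell markers, was low in most members. Rgs1 was detected in 1 of 21 cells, at 393 TPM, and Rgs16 and Rgs3 in 2 each. Rgs10 was detected in 9 of 21 cells (42.9%, 21.8 to 66.0) at 84.2 ± 138 TPM (SD, n = 21 cells), and Rgs19 in 7 (33.3%, 14.6 to 57.0) at 110 ± 188 TPM. Against all Ins T cells, the log2 differences were -2.77 for Rgs1, -2.84 for Rgs10, -2.45 for Rgs16 and -1.27 for Rgs3. These 4 of 6 members passed a difference of 1 downward, against 11.3% of all genes (34.3% in either direction), and the median of the 6 was -1.86 against 0.19. Each of the 4 was lower in all 3 blocks, as were 23.0% of genes. The blocks held 2, 14 and 5 cells of cluster 4. Rgs1, Rgs3 and Rgs16 were at 0 in the blocks of 2 and 5 cells, which adds little to the agreement. These genes passed the detection filter only through the T cells. They were detected in 4.76%, 9.52% and 9.52% of cluster 4 cells, against 36.9%, 28.8% and 34.3% of Ins T cells. Rgs19 and Rgs14 did not pass, at -0.10 and 0.23, so the composition of the group differed as well as its sum.

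Chemokine receptors, whose signals these proteins end, differed between the sorts to an extent that depended on the class. Of 17 chemokine receptors in the table, 7 were tested between HIP and Ins Tfh cells, with 1 higher and 1 lower by 1 or more, against 5.87% of all genes in either direction. Cxcr4, the receptor for Cxcl12, was the higher one (1.53, with 74.8% against 63.9% of cells), and Ccr7, which guides cells into lymphoid tissue, was the lower one (-1.14). In cluster 2, where Rgs1 differed most between the sorts, 0 of 11 chemokine receptors passed in either direction, against 15.2% of genes, and the greatest difference was -0.86 for Ccr7. In dividing cells 3 of 11 were higher in HIP and 3 lower, against 17.2% and 10.0% of genes, and Ccr7 was among the higher ones at 1.81. Between classes of the Ins sort, 5 of 10 were higher and 3 lower in Treg than in Tfh cells, against 13.3% of genes in either direction, led by Cxcr6 (4.96), Ccr8 (4.74) and Ccr2 (4.43), receptors of T cells in inflamed tissue. In HIP cluster 2 against Tfh, 5 of 10 were higher and 2 lower, against 11.3% of genes, with Cxcr6 at 5.39, Cxcr5 at -3.48 and Cxcr4 at -3.0. Cxcr5 passed the detection filter here only through the Tfh cells. The classes are the authors' clusters of these same cells, and Cxcr5 and Cxcr6 served above to check their names. Both class comparisons are therefore descriptions.

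Of 18 heterotrimeric G protein subunits in the table, 11 were tested between the sorts in Tfh cells and 11 in cluster 2, and none passed a difference of 1 upward or downward. Of all genes, 5.87% passed in Tfh cells and 15.2% in cluster 2. Gna13, the alpha subunit that opposes migration, came closest in Tfh cells at 0.96. In cluster 2 the median of the subunits was -0.30 (all genes 0.05). There Gnai2, the main Gi alpha subunit of lymphocytes, was just short of 1 in absolute difference. In dividing cells 4 of 14 were higher in HIP and 0 lower, against 17.2% and 10.0% of all genes. The median was 0.44 (all genes 0.17), and Gng2, a gamma subunit, led at 2.43. In Ins dividing against Treg cells 9 of 13 were higher, against 42.3% of all genes, and 0 lower. The median was 1.27 (all genes 0.80), and Gnai3 differed by 2.83. For receptor desensitisation, 4 of 7 genes were tested in Tfh cells and none passed, but all lay below 0 in HIP, with Adrbk1, a receptor kinase, at -0.93 and Arrb2, an arrestin, at -0.83. In cluster 2 Arrb2 was lower in HIP by 1.45 and 1 of 4 passed, against 6.74% of genes downward. In dividing cells Arrb2 was higher by 1.33 and 2 of 5 passed upward, against 17.2% of genes. Among effectors and partners, 0 of 12 passed in Tfh cells. In cluster 2, 3 of 13 were higher and 1 lower, against 8.42% and 6.74% of genes. Ric8, which loads alpha subunits with GTP, was detected in 23.0% of HIP cells and in 0% of the 25 Ins cells. It was tested only through its share in HIP, and 0% of so few cells is compatible with a low share. Elmo1, which acts in migration, differed by 1.34. In dividing cells 4 of 18 were higher in HIP and 3 lower, against 17.2% and 10.0% of genes. Gipc1, the partner of Rgs19, differed by 0.38 between the sorts in Tfh cells. In the cyclic AMP pathway 2 of 6 genes tested were higher in HIP Tfh cells and 0 lower, against 2.08% of genes upward. They were Prkacb, a catalytic subunit of protein kinase A (1.75), and Pde4b, which degrades cyclic AMP (1.06). In cluster 2, 1 of 7 was lower in HIP and 0 higher, against 6.74% of genes downward, and Prkacb was lower by 1.44. Among the other G protein-coupled receptors, 1 of 10 was lower in HIP Tfh cells and 0 higher, against 5.87% of genes in either direction. It was Gpr183, which guides Tfh cells by oxysterols, lower by 1.55. In cluster 2, 3 of 11 were lower in HIP and 0 higher, against 6.74% of genes downward. Ptger2, a prostaglandin receptor, was lower there by 2.13.

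Some pairs of members were detected together about as often as their separate shares give, and others more often. Over 420 T cells, Rgs1 and Rgs16 were found together in 63 cells, where the product of their shares gives 60.4, and Rgs1 and Rgs10 in 94, where it gives 96.6. Rgs10 and Rgs19 were found together in 79 cells against 64.6, with Rgs19 in 32.9% of cells that held Rgs10 and 18.9% of those that did not. In Tfh cells that pair was together in 23 cells against 22.7, and in Ins Treg cells in 25 against 18.9. Over T cells, log2 levels of Rgs10 and Rgs19 had correlations of 0.21 and 0.24 with the number of genes detected. The part of that number was not tested. Rgs3 and Rgs19 were together in 39 T cells against 30.4. In Ins cluster 2, Rgs1 and Rgs16 were together in 2 of 25 cells, although 13 and 10 cells held each, against a product of 5.20. The correlation of their log2 levels there was -0.58 (n = 25 cells, which share a sort and its dropout), and over all T cells it was 0.05. Cells of Ins cluster 2 thus held mostly the one or the other, but the same pair showed no such relation over all T cells. Nor did it in HIP cluster 2, with 23 cells together against 22.6 and a correlation of -0.04 (n = 61 cells). In Ins cluster 2, Rgs16 also lay mostly in the second block, of 7 cells, at a mean log2 level of 7.01 against 2.18 and 1.92.

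By correlation of log2(TPM + 1) over 420 T cells among 5374 genes, the genes most like Rgs1 were Tpst2 (0.26), Ebp (0.25) and Agpat4 (0.23). For Rgs16 they were Skil, Egr2 and Ndfip1, for Rgs10 Suclg1, Cdc42 and Eif3f, and for Rgs19 Nhp2l1, Tmem181b-ps and Nup107. For Rgs3 they were Cct7, Rfc2 and H2-T22. The cells share their sorts, and correlations of this size in sparse values are weak. No member was near the top of another's order: Rgs16 ranked 1581 and Rgs10 ranked 5235 in likeness to Rgs1. The closest pair was Rgs10 and Rgs19, with a correlation of 0.10. Rgs19 ranked 742 in likeness to Rgs10, and Rgs10 ranked 970 in likeness to Rgs19.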

How the data were processed

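Single cells were profiled by full-length SMART-Seq2, and the submitters' processing notes name TopHat, Bowtie, RSEM 1.2.8 and the build mm10 without their roles. The values that the authors deposited are on a natural log scale: exp(value) - 1 adds up to 100000 for a cell, which fits ln(TPM/10 + 1), so TPM, the unit the planned comparisons assumed, was recovered from them. The deposited annotation gives each cell's sort, class and other fields such as the number of genes detected, and it matched the labels in 441 of 441 cells. The sources used here give neither the clustering method nor the filters on genes and cells, and no doublet caller was run on these singly sorted cells.

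Detection means 1 TPM or more. Intervals of shares are exact Clopper-Pearson 95% intervals, and for 0 cells the limit is 3 cells of the total. Both concern detected transcripts, and a cell without detection may still express the gene. Comparisons are differences of mean log2(TPM + 1) over cells, with a pseudocount of 1 TPM, among genes detected in 10% of the cells of either group, and a difference of 1 was the threshold. This scale understates changes of low genes, and with many cells at 0 it largely follows the share of cells detected. The script was tested on simulated data. Python 3.11.15, numpy 2.4.6, pandas 2.3.3, scipy 1.17.1 and matplotlib 3.10.9 were used.

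Named genes were the 7 RGS genes, the 3 with the greatest difference of each list (chemokine receptors, other G protein-coupled receptors, G protein subunits, receptor desensitisation, effectors and partners, cyclic AMP pathway, other RGS family genes, stress genes) in each comparison, of which some are described, and the 3 genes most correlated with each RGS gene (those for Rgs14 are not reported here). Marker genes served to check the class names. Genes and lists were chosen with earlier results of these data known. Alternatives were pseudocounts of 0.1 and 10 TPM, detection at 10 TPM, no filter, equal weight per block, cells with at least 1500 genes, removal of the ribosomal RNA precursor Rn45s, and leaving out each block. RefSeq promoter windows cover 250 bases before and 50 after each start.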

Additional observations from a re-analysis of the deposited data

Results flagged for a closer look

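Differences between the HIP and Ins sorts were 1 or more in opposite directions in different classes for 3 of the genes, and the difference between classes was not tested, since each sort is 1 sample. For Rgs1, HIP minus Ins on the log2(TPM + 1) scale was 1.80 in Tfh cells and 3.22 in cluster 2 but -2.07 in dividing cells. For Rgs16 it was 1.26 in cluster 2 and -2.48 in dividing cells. For Rgs19 it was the other way round, at -1.49 in cluster 2 and 1.83 in dividing cells. The dividing class holds 9 HIP cells, of which Foxp3 was detected in 0, against 27 of 35 Ins dividing cells, and the part of that makeup was not tested.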

How the results depend on the processing

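Of 19 differences of the RGS genes past 1, 16 kept their direction in each setting run and 10 also stayed past 1. The other 3 changed sign when a block was left out: Rgs19 in dividing cells, HIP minus Ins, was -0.29 without the second HIP block, which leaves 2 HIP cells. Leaving out a block, Rgs16 in HIP cluster 2 minus Tfh ranged from -0.032 (without the second HIP block) to 3.47, and Rgs10 in Ins cluster 2 minus Tfh from -2.48 to 0.31 (without the third Ins block). Rgs19 ranged up to 2.44. The number of RGS genes past 1 moved most with the pseudocount. At 0.1 TPM it was 6 in place of 3 for HIP minus Ins in cluster 2, 5 in place of 3 in dividing cells, 2 in place of 1 for Ins Treg minus Tfh, 4 in place of 2 for Ins cluster 2 minus Tfh and 4 in place of 2 for Ins dividing minus Treg. At 10 TPM it was 1 for HIP minus Ins in cluster 2, 1 for Ins cluster 2 minus Tfh and 0 for Ins dividing minus Treg. With equal weight per block it was 1 for Ins dividing minus Treg. In cells with at least 1500 genes it was 1 for that comparison and 1 for Ins cluster 2 minus Tfh. Leaving out each block gave 1 to 1 for HIP minus Ins in Tfh cells, 2 to 4 in cluster 2 and 2 to 5 in dividing cells. It gave 1 to 2 for Ins Treg minus Tfh, 2 to 3 for Ins and HIP cluster 2 minus Tfh, 1 to 3 for Ins dividing minus Treg and 4 to 4 for cluster 4. The cause of these shifts was not tested. Of 112 shares of cells recomputed, at 10 TPM or in cells with at least 1500 genes, 112 stayed within their interval. These shares come from the same cells as the intervals, so their agreement adds little. Rgs1, HIP minus Ins, ranged over the settings from 1.18 to 2.44 in Tfh cells and from 2.49 to 3.98 in cluster 2. No paired analysis was possible because each sort is 1 sample and cell numbers pair nothing across sorts. Each class is small, dropout to 0 is frequent, depth is unknown, and no value here has a replicate of its sort.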

Other observations

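Other genes of the RGS family were rare in these T cells. Rgs9, an R7 member best known from photoreceptors and striatum, was detected in 13 of 184 T cells from the HIP sort (7.07%) and 1 of 236 from the Ins sort (0.424%). Rgs20, a relative of Rgs19, was detected in 41 of 420 T cells, at a mean of 0.39 TPM over all of them. Rgs8, Rgs11, Rgs12 and Rgs13 were detected in 10, 11, 6 and 1 of 420 T cells. Snx14, a sorting nexin with an RGS domain, was the most frequent of the list, in 62 of 420 T cells (14.8%).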
